A study of Mus musculus with 75 samples.

Results

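The genes described here rose in cultured mouse germ cells given retinoic acid and stood lower when bone morphogenetic protein (BMP) was added as well. They were chosen on the day 9 values themselves: the mean of log2(RPM + 1), where RPM is the number of reads scaled to the depth of the library, had to be at least 1.5 higher in the RA group than in the CT group, and at least 1 lower in the RB group than in the RA group. The mean in RA also had to reach 20 RPM, and predicted names were dropped. The rule found 100 of the 26218 genes in the table, after 4 predicted names were left out. Of 278 genes that met the RA limits, 100 were lower in RB by at least 1, 119 lay within 1 of RA and 59 were higher by at least 1. So the 100 members are the restrained share of the retinoic acid response at that day, as the rule defines it.

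The study asked how retinoic acid and BMP together give germ cells a female fate, as its title states. It used primordial germ cell-like cells (PGCLCs), which are made from embryonic stem cells through an epiblast-like stage and then grown on feeder cells, and germ cells sorted from embryos. Messenger RNA was measured by SC3-seq, a method that reads the 3′ ends of amplified transcripts. Libraries number 75 in 37 groups.

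In the main culture experiment the PGCLCs were of a 129S1:C57BL/6 line with the reporters Prdm1-mVenus and Dppa3-ECFP. The groups are named CT, RA and RB in the labels, which do not spell the names out; RA is read here as retinoic acid, RB as retinoic acid with BMP, and CT as the control without them. Factors were supplied from culture day 3 on, and CT, RA and RB were collected at days 5, 7 and 9, with 2 libraries in each group. The start of the culture (day 0) and CT at day 3 had 2 libraries each, and 1 library was named 0R3B at day 9, a code the labels do not explain. Cultured cells were sorted as SC-positive before RNA was taken, which is read here as the Dppa3-ECFP reporter.

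A separate experiment used a DBA/2:C57BL/6 background with the same reporters. Its wild type line had 2 libraries a day and its Stra8-/- cells had 4, from the lines SK1 (2 libraries), SK2 and SK3 (1 each). All of these were CT at day 3 and RB at days 5, 7 and 9, so the experiment has no RA arm without BMP. Embryonic germ cells were of an ICR:C57BL/6 cross, collected from E9.5 to E15.5, the reporter being Dppa3-EGFP until E13.5 and at the later 2 stages Ddx4-RFP, with 2 libraries a group and the sexes separate from E12.5 on. A C57BL/6 line that also carried Gtrosa26tm1Sor gave 6 single libraries. Nothing in the labels says that the libraries of a group came from separate cultures or animals, so p-values measure the spread between these libraries, which may be technical.

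Retinoic acid enters cells, binds nuclear receptors that sit on repeated DNA motifs, and raises genes that include its own brakes: the Cyp26 enzymes break retinoic acid down, and Dhrs3 lowers the supply of its precursor. BMP ligands act through a different route, in which receptor kinases activate Smad proteins that raise targets such as the Id genes. In the fetal ovary germ cells enter meiosis and express Stra8 and later the meiotic prophase genes, while in the fetal testis Cyp26b1 made by somatic cells keeps retinoic acid low and the germ cells pass through a period of Nodal signalling with Lefty1 among its targets.

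The RefSeq promoter table (GRCm38.p6, 250 bases before to 50 after the start site) matched 74 of the 100 members. Retinoic acid response elements were searched as 2 direct repeats of the core AGGTCA or its variants, which were AGTTCA and also GGGTCA and also GGTTCA, spaced by 2 or 5 bases on both strands. The spacing of 5 was found in 1 member, Cyp26a1 (1.35% of the members matched, against 0.0763% of 18351 genes), and the spacing of 2 in 1 member, Tinagl1 (1.35% against 0.0981%). These promoters are shown because both genes are among the 12 members with the highest RA level. A CArG box, the site named for serum response factor, was searched after the members were seen to hold many actin genes. It lay in 4 members (5.41% against 1.79% of genes), which are shown for that reason. Capitals mark the motif, and each stretch ends at or before the start site of the promoter entry, on the strand of the gene. That start site need not be the first base of the gene.
Cyp26a1: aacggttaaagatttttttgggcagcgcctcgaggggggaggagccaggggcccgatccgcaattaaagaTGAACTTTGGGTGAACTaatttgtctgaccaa
Tinagl1: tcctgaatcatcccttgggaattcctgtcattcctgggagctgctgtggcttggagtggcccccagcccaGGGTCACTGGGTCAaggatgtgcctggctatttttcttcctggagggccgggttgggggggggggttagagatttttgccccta
Actc1: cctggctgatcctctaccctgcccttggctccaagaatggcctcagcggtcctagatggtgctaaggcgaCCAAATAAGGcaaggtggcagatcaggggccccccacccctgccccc
Myl9: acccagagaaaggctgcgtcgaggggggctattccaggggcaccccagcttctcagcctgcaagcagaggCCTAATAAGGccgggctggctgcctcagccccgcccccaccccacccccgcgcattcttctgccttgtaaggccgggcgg
Glipr2: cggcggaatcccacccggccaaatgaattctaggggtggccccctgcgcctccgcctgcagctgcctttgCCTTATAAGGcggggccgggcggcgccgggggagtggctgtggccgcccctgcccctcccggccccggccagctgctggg
Ston1: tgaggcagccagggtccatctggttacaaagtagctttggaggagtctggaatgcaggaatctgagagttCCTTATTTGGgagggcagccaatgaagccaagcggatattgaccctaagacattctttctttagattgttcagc

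The Cyp26a1 stretch lies at chr19:37697706-37697807 on the plus strand. Its element reads as the direct repeat on the opposite strand, with its first base at position -32 from the start site. The Tinagl1 stretch is chr4:130175146-130175299 on the minus strand, with the motif starting at -107. Actc1 is shown at chr2:114052876-114052992 (minus strand, motif at -47) and Myl9 at chr2:156775233-156775382 (plus strand, motif at -161). Glipr2 is shown at chr4:43957548-43957697 (plus strand, motif at -84) and Ston1 at chr17:88626411-88626554 (plus strand, motif at -74). The motifs of Cyp26a1 and Ston1 lie before the start site of the promoter entry but inside the span listed for the gene. Those spans are chr19:37697738-37701536 for Cyp26a1 and chr17:88597615-88647865 for Ston1. The Smad motif GGCGCC was in 20 members (27% against 17.3% of genes). GGAATG, the TEAD core, was also searched after the members were seen. It was in 19 of the 74 members matched (25.7%), against 2847 of 18351 genes. The shares over all 22152 promoters were 0.0632% and 0.0858% for the spacings of 5 and 2, 1.56% for the CArG box, 15.4% for GGCGCC and 13.7% for GGAATG. A match is a description of the letters and not a test of binding.

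Libraries held an estimated 1.08 to 15.6 M reads (median 3.12), with 2.69 to 4.44 M in the embryo and 2.52 to 4.29 M in the main culture experiment. A level of 3 reads, taken as the least that counts as measured, corresponds to 0.192 to 2.78 RPM. Libraries of a group agreed at a Pearson r of 0.978 to 0.993 across all genes. The 5 germ cell markers Dppa3, Ddx4, Dazl, Tfap2c and Prdm1 summed to 991 to 7679 RPM over the libraries. Dppa3, the gene behind the reporter, differed between the day 9 groups, with 1529 and 1468 RPM in CT, 814 and 816 in RA, and 301 and 274 in RB. Ddx4, a later germ cell gene, went the other way, at 55 and 63.4 RPM in CT, 71.2 and 74.1 in RA, and 362 and 444 in RB.

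At day 9 the summed level of the 100 members was 1568 and 1466 RPM in CT, 7268 and 8569 in RA, and 2578 and 2090 in RB. These are the libraries that chose the members, so the following values describe them and no test is given. The median difference was 2.12 on the log2(RPM + 1) scale for RA minus CT and -1.65 for RB minus RA. RB minus CT, which the rule did not limit, had a median of 0.49. Of the members, 66 were within 1 of CT in RB, 29 were at least 1 higher and 5 were at least 1 lower. RB minus CT was above 0 in 78 of the 100. No share of all genes was counted beside these numbers.

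RB minus CT is the sum of the differences that chose the members, so its values by role, with roles assigned after the members were seen, are a description and no test compares them. The 4 genes of retinoid metabolism and uptake had a median of 4.27. The 4 other retinoic acid targets (Tgm2, Tshz1, Meis2 and Hoxa5) had a median of 1.28, and the 8 genes of transcription and cell cycle 0.93. Actin, contractile and adhesion genes (16 members) and receptors and signalling proteins (16) both had a median of 0.35, and the 5 genes of the Hippo pathway and its TEAD factors 0.20. The lowest member was Lefty1 at -2.41 and the highest was Cyp26a1 at 5.44.

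The limits of the rule cut through a continuous range. For RA minus CT the members just inside were Trerf1 at 1.501, Cd63 at 1.52 and Cdc42se1 at 1.55, and the genes just outside were Bmf at 1.48, D10Bwg1379e at 1.46 and Meg3 at 1.44. For RB minus RA, Trerf1 and Dkk3 at -1.01 and Capn2 at -1.03 were inside, and Lsp1 at -0.97 and Golm1 at -0.96 outside. On level, Galnt6 at 20.3 RPM, Cdk6 at 20.4 and Des at 20.4 were inside, and Tnfrsf1a at 19.9, Nfil3 at 19.8 and Cryab at 19.8 outside.

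Cyp26a1 (chr19:37697738-37701536), the enzyme that oxidises retinoic acid, was 1.93 and 7.11 RPM in CT, 488 and 521 in RA, and 195 and 228 in RB. Cyp26b1, its relative, was 0.643 and 0 RPM in CT, 53.3 and 72.5 in RA, and 27.4 and 30 in RB. Dhrs3, a retinal reductase, was 0.321 and 0 in CT, 57.3 and 71.4 in RA, and 21.4 and 14.2 in RB. In all of these the RB libraries lay between CT and RA and overlapped neither. Stra6, the receptor that takes up retinol, was 0.321 and 0 RPM in CT, 20.8 and 32.5 in RA and 3.97 and 4.02 in RB.

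Of the other retinoic acid targets, Tgm2, a transglutaminase, was 1.93 and 5.5 RPM in CT, 61.4 and 55 in RA, and 15.1 and 11.54 in RB. Hoxa5, a patterning gene, was 0.321 and 0 RPM in CT, 22.4 and 25.2 in RA and 13.502 and 7.51 in RB. Meis2, a homeobox partner of Hox proteins, was 10.3 and 7.44 in CT, 32.1 and 48.7 in RA and 14.7 and 18.8 in RB. Tshz1, a zinc finger factor, returned closest to the control of these, at 12.9 and 9.05 in CT, 54.5 and 52.5 in RA and 16.7 and 12.6 in RB.

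The Nodal target Lefty1 (chr1:180935022-180938401), a secreted Nodal antagonist, was 143 and 145 RPM in CT, 429 and 526 in RA, and 23 and 29.9 in RB, so RB was below both other groups.

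Actin-related genes were among the members with the highest levels. Tpm1, an actin-binding tropomyosin, was 149 and 134 RPM in CT, 425 and 481 in RA, and 127 and 114 in RB. Tpm4, another tropomyosin, was 26 and 28 in CT, 112 and 138 in RA, and 47.3 and 25.2 in RB. Smooth muscle actin Acta2 was 32.8 and 12.6 in CT, 141 and 159 in RA, and 46.9 and 11.54 in RB. The libraries of RB disagreed on Tpm4 and Acta2, where 1 was above both CT libraries and the other below both.

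Tspan9, a tetraspanin, was 29.2 and 40.4 RPM in CT, 119 and 126 in RA, and 27 and 20.1 in RB. Pmp22, a membrane protein of the junctions of myelin and epithelia, was 2.57 and 6.14 in CT, 116 and 145 in RA, and 41.3 and 28.7 in RB. Prtg, a receptor of early embryonic tissue, was 21.9 and 23.9 in CT, 137 and 162 in RA, and 64.7 and 54.7 in RB. Pmp22 and Prtg stayed above both CT libraries in RB, and Tspan9 did not.

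Tinagl1, a matrix glycoprotein, was 9.96 and 15.8 RPM in CT, 136 and 174 in RA, and 22.2 and 21.5 in RB. Aldh3a2, a fatty aldehyde dehydrogenase, was 47.2 and 45.9 in CT, 124 and 217 in RA, and 30.6 and 33 in RB. The imprinted RNA H19 (chr7:142575530-142578146), the 1 member that is not protein coding, was 193 and 190 in CT, 1068 and 1449 in RA, and 610 and 341 in RB. The simple epithelium keratins were members together: Krt8 was 5.46 and 13.1 in CT, 44.6 and 44.4 in RA and 27.6 and 14.49 in RB, and its partner Krt18 was 19 and 12.9, 110 and 87.2, and 52.4 and 26. Both keratins were above CT in every RB library.

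The cells were grown on feeder cells, and the sum of fibroblast genes other than Fn1 was higher in RA than in CT or RB at day 9. Without Fn1, which made up most of the sum in CT, the 15 genes of the fibroblast and feeder list summed to 44.6 to 112 RPM in CT, 157 to 249 in RA and 43.2 to 76.2 in RB; Lum was at 0 in RB. Dcn, a matrix proteoglycan on that list, is itself a member, at 14.8 and 8.41 RPM in CT, 31.8 and 48.1 in RA, and 3.18 and 0.805 in RB. Its part of the sum was thus chosen by the rule, and no sum without it was taken. The sums of CT and RB overlapped. The part of feeder RNA in the members' values was not tested. In sorted bulk samples, fewer cells of a type and less RNA per cell cannot be told apart.

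**Figure D1:**
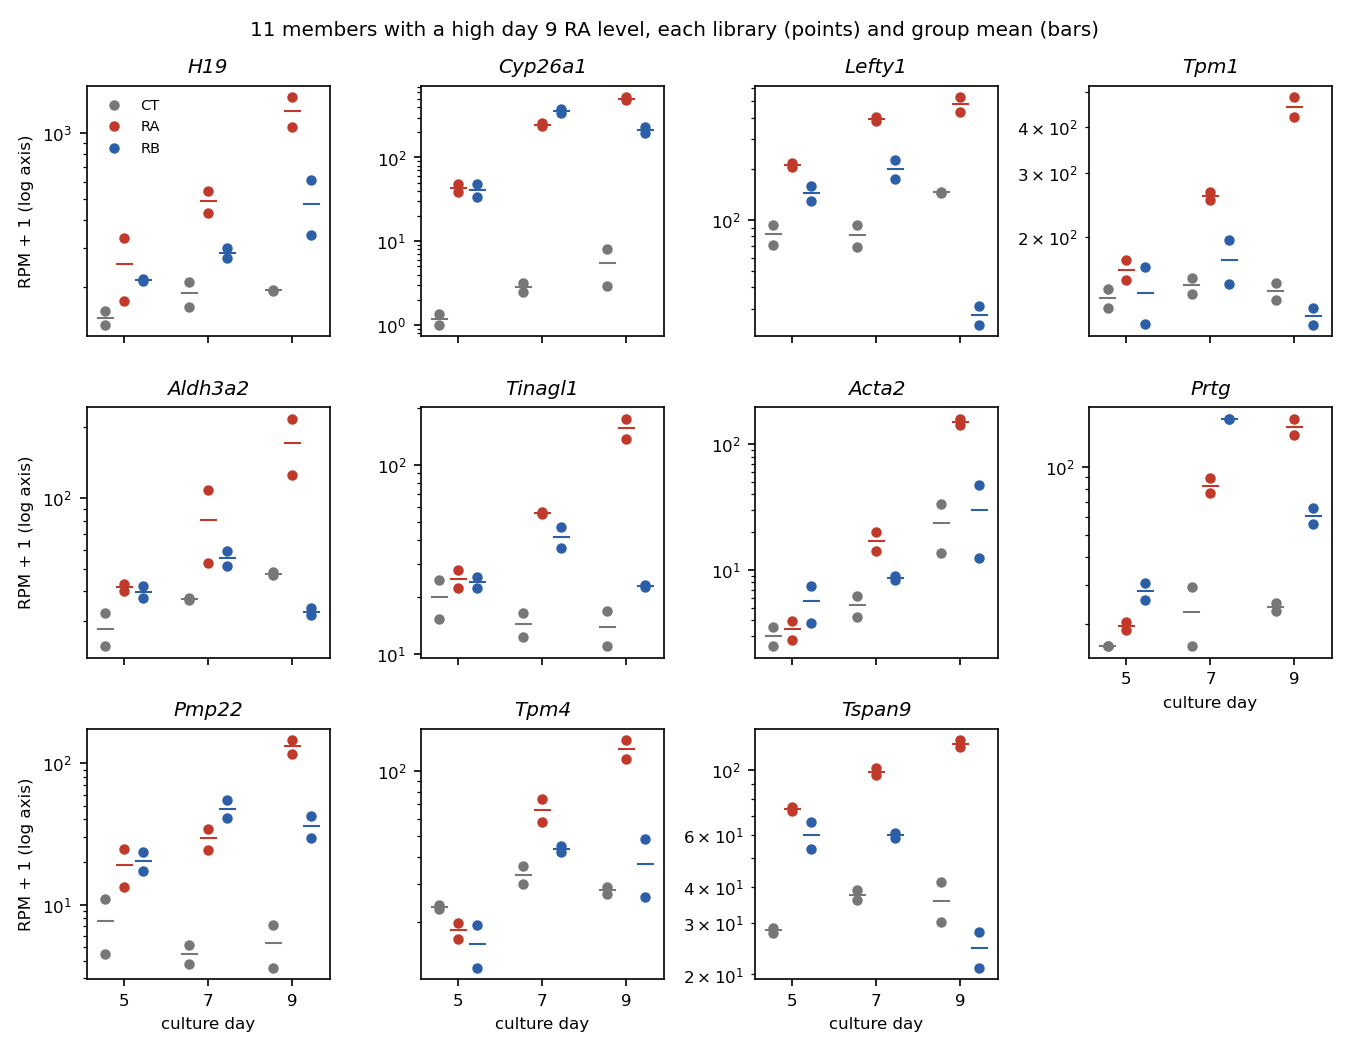
RPM + 1 on a log axis against culture day for 11 members with a high RA level at day 9, with each library as a point and group means as bars for CT, RA and RB. At day 9 every RA point of Cyp26a1 (488 and 521 RPM) is above RB and CT, as the rule required of the group means. At day 7 its RB points (336 and 378) are above RA (254 and 239).

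Days 5 and 7 of the same line were not used by the rule, and they were fitted with limma over all 11873 genes that reached 5 RPM in at least 2 libraries. Calls required a Benjamini-Hochberg adjusted p under 0.05 together with an absolute log2 difference of at least 1. All 100 members passed the filter through the day 9 RA libraries, if through no others. RA and RB comparisons of a day share libraries: RA against CT and RB against RA share RA, and both comparisons with CT share CT.

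At day 5, after 2 days with the factors, few members had moved. RA was above CT in 7 members and below in 0, against 0.227% and 0.0168% of all genes tested, and the member median was 0.23 against -0.04 over all genes. At an unadjusted p below 0.05, 3 members were below CT. Among the 7 were Cyp26a1, Dhrs3, Fam176b, Cmtm8, Tspan9 and Lefty1. The count fell to 3 without CT replicate 2 and to 3 without RA replicate 2.

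Cyp26a1 was already 37.9 and 46.9 RPM in RA at day 5, against 0.367 and 0 in CT, a log2 difference of 5.21 (SE 0.35, limma with Benjamini-Hochberg adjusted p = 7.61e-10). Lefty1 was 204 and 215 RPM in RA and 92.6 and 69.9 in CT (log2 difference 1.37, SE 0.18, limma adjusted p = 0.000213). The 7 thus held 2 retinoid enzymes and the Nodal antagonist.

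RB was above CT in 10 members and below in 0 at day 5 (0.556% and 0.118% of all genes), with 8 below at an unadjusted p under 0.05. The count without RB replicate 1 was 6, without CT replicate 2 it was 5 and without RB replicate 2 it was 4. Cyp26a1 was 33.1 and 47.8 RPM in RB, which overlaps RA (5.13 above CT, SE 0.35, limma adjusted p = 1.07e-09). Between RB and RA limma called 0 members in either direction at day 5 (0.0421% higher and 0% lower of all genes). At an unadjusted p under 0.05, 5 members were higher and 7 lower in RB. The median over members was 0.01.

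At day 7 limma called 46 of the 100 members above CT in both arms, which share the CT libraries. The share of all genes called in both was not counted, and it cannot exceed the 4.68% called for RA. RA was above CT in 57 members and below in 0 (4.68% and 0.531% of all genes, with 0 members below at an unadjusted p under 0.05). The median of the members was 1.40 against 0.10 over all genes, and 98 of 100 were above 0. Without RA replicate 2 the count was 33. RB was above CT in 52 members and below in 0 (15.7% and 3.62%, with 2 below at an unadjusted p under 0.05), with a median of 1.12 against 0.22. The summed level was 1488 and 1456 RPM in CT, 3768 and 4205 in RA, and 3555 and 3543 in RB, so RA and RB did not overlap but lay close.

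Between RB and RA at day 7 limma called 1 member higher and 3 lower, where 3.58% of all genes were called higher and 1.04% lower. The member median was -0.07 against 0.10 over all genes. The share of members called lower, 3%, is near the background, and the count of 3 became 1 without RA replicate 1, 1 without RA replicate 2 and 0 without RB replicate 2. The change of the RB against RA difference from day 5 to day 7 was called in 0 members in either direction by limma (0.413% and 0.059% of all genes), with 2 higher and 5 lower at an unadjusted p under 0.05. At day 9 each member was lower in RB by the rule, and at days 5 and 7 few were called so.

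Scaling mattered for the split of all calls at day 7. Of all genes called, 89.8% were higher for RA against CT, 77.4% for RB against RA and 81.2% for RB against CT. After median centring these shares were 75.8%, 58.7% and 60.2%, and after quantile normalization 62.7%, 50.9% and 50.9%. The median of all genes moved from 0.10 to -0.04 and -0.03 for RA against CT, from 0.10 to -0.05 and -0.01 for RB against RA, and from 0.22 to -0.07 and -0.03 for RB against CT. For the day 7 less day 5 contrast of RB against RA the share went from 87.5% to 73.2% and 71.3%. The members' count for RA against CT was 50 and 47 under those scalings, and for RB above CT 42 and 40, with 2 below CT under each. For RB under RA the count of 3 became 5 and 7, and RB over RA gave 0 and 1.

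**Figure D2:**
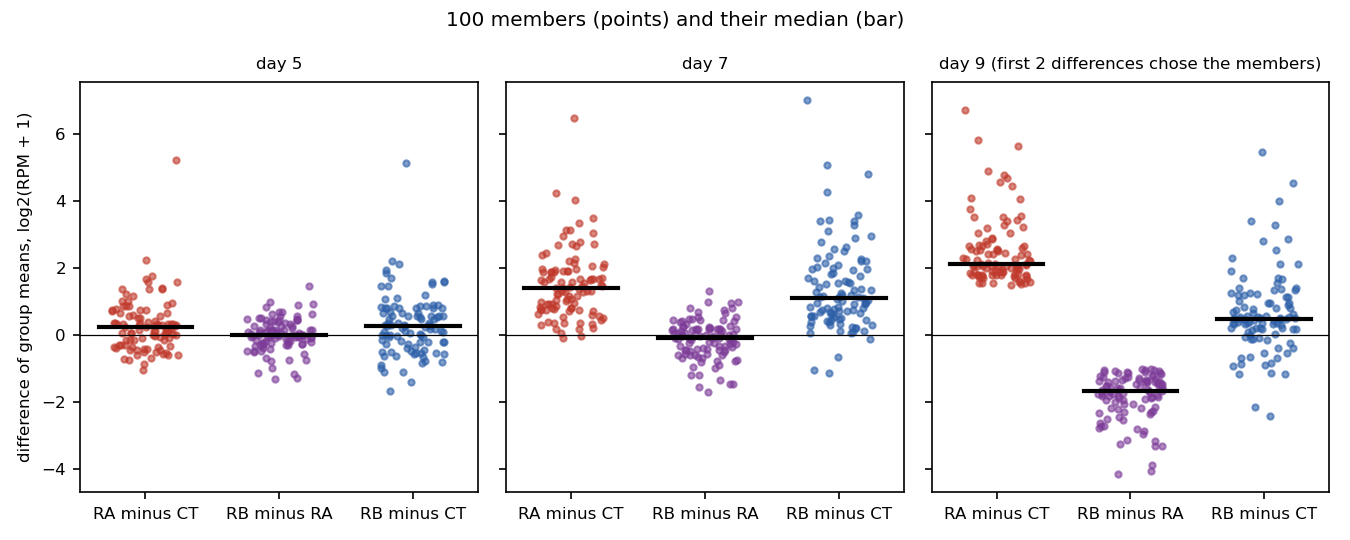
Differences of group means on the log2(RPM + 1) scale for the 100 members (points) with their median (bar) at days 5, 7 and 9. The RB minus RA median is 0.01 at day 5, -0.07 at day 7 and -1.65 at day 9, where the RA minus CT and RB minus RA differences chose the members.

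By role, 2 of the 4 retinoid genes were called for RA against CT at day 5, where 7 of 100 members and 0.227% of all genes were. At day 7 all 4 were called for RA against CT and all 4 for RB against CT. The day 7 counts by role stand beside 57 of 100 members and 4.68% of all genes for RA against CT. For RB against CT those numbers were 52 and 15.7%. Roles were assigned after the members were seen, and no test compared them. Cyp26a1 was 1.47 and 2.16 RPM in CT, 254 and 239 in RA and 336 and 378 in RB, with both RB libraries above both RA libraries. The RA against CT difference was 6.47 (SE 0.35, limma adjusted p = 6.55e-12), and RB against RA was 0.53 (SE 0.35, limma adjusted p = 0.381), which was not called.

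Cyp26b1 was listed at 0 in both CT libraries, 10.1 and 10.46 RPM in RA and 23.3 and 31.4 in RB. It was the 1 member called higher in RB than RA at day 7 (log2 difference 1.31, SE 0.39, limma adjusted p = 0.0405). At day 9 the order was the reverse, as the rule required of every member, with 53.3 and 72.5 RPM in RA and 27.4 and 30 in RB. Dhrs3 had the same order at day 7, at 19.3 and 20.9 in RA and 35.3 and 37.1 in RB, but its difference of 0.82 (SE 0.44, limma adjusted p = 0.268) was not called.

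Lefty1 rose in RA at day 7 and stood lower in RB. It was 68.6 and 92.9 RPM in CT, 403 and 379 in RA, and 223 and 174 in RB (RA against CT 2.28, SE 0.18, limma adjusted p = 1.32e-08). RB against RA was -0.98 (SE 0.18, limma adjusted p = 0.00172), just under the fold limit of 1, so it was not called.

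The 3 members called lower in RB at day 7 came from different roles. Cyr61, a secreted matricellular protein and a target of the Hippo pathway, was 5.14 and 3.71 RPM in CT, 11.3 and 13.8 in RA, and 3.21 and 4.8 in RB (RB against RA -1.45, SE 0.38, limma adjusted p = 0.0201). Oasl2, an interferon-induced gene, was 2.2 and 4.64 in CT, 30 and 26 in RA, and 11.4 and 9.6 in RB (-1.34, SE 0.38, limma adjusted p = 0.0322). Dcn was 24.7 and 22.6 RPM in CT, 27.9 and 43.9 in RA and 12 and 8.64 in RB (-1.69, SE 0.44, limma adjusted p = 0.0206). Dcn was not called for RA against CT (0.55, SE 0.44, limma adjusted p = 0.528). The fibroblast list, Fn1 left out, summed to 66.8 to 87 RPM in CT, 89.5 to 104 in RA and 63.4 to 64.2 in RB, with Lum at 0 in every group and Thy1 at 0 in RA and RB.

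Receptors, membrane and signalling proteins had 13 of 16 members called for RA against CT at day 7. Pmp22 was 4.16 and 2.78 RPM in CT, 23.5 and 33.4 in RA and 40 and 53.5 in RB, and Prtg was 28.4 and 15.1, 75.2 and 87.8, and 161 and 161. Both were above RA in each RB library, but neither was called (Prtg 0.98, SE 0.23, limma adjusted p = 0.00967, and Pmp22 0.70, SE 0.39, limma adjusted p = 0.293). Tspan9 was 35 and 38 in CT, 95.1 and 101 in RA and 57.8 and 59.9 in RB, so it stood lower in each RB library (-0.73, SE 0.20, limma adjusted p = 0.0261), under the fold limit.

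Structural genes were called in part at day 7. Of the 16 actin, contractile and adhesion members 6 were called for RA against CT at day 7, and of the 4 intermediate filament and tubulin members none was. Krt18 was 14.2 and 24.4 RPM in CT, 16.9 and 19.9 in RA and 40 and 34.6 in RB, and Krt8 was 5.88 and 9.28, 7.73 and 9.45, and 12.4 and 8.96. Acta2 was 3.25 and 5.26 in CT, 13.1 and 19 in RA and 7.29 and 8 in RB (RA against CT 1.70, SE 0.52, limma adjusted p = 0.0441). Tpm1, at 265 and 252 RPM in RA against 154 and 139 in CT, was under the fold limit (0.82, SE 0.18, limma adjusted p = 0.00679).

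The other groups at day 7 had 5 of 13 matrix and secreted members called for RA against CT, 6 of 11 enzymes, 5 of 8 transcription and cell cycle genes and 4 of 5 Hippo and TEAD genes. Interferon and antigen genes had 3 of 5 and the other retinoic acid targets 3 of 4. Hoxa5 was 0.49 and 0.309 RPM in CT, 3.57 and 6.08 in RA and 5.25 and 5.76 in RB (RA against CT 2.03, SE 0.41, limma adjusted p = 0.00297). H19 was 210 and 161 in CT, 433 and 545 in RA and 299 and 268 in RB (1.40, SE 0.26, limma adjusted p = 0.00145). Its RB libraries were again between CT and RA, by -0.78 against RA (SE 0.26, limma adjusted p = 0.071).

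Genes of the same pathways, some of them members, were counted on lists made with earlier results of these data known. Of 20 retinoic acid targets tested, 12 were above CT in RA at day 7 and none below, and 7 of the 20 are members. In RB against RA at day 7, 6 of the 20 were higher and none lower. Rarb, the retinoic acid receptor that is its own target and no member, was 4.30 above CT in RA (SE 0.40, limma adjusted p = 2.38e-07) and 0.76 higher in RB than RA (SE 0.40, limma adjusted p = 0.264). Of 15 BMP targets 9 were higher in RB than RA and none lower, and none of the 15 is a member. Id1 was 4.76 and 17.6 RPM in RA and 215 and 280 in RB (log2 difference 4.57, SE 0.39, limma adjusted p = 1.16e-07). Of 32 meiotic prophase genes 20 were higher in RB than in RA and none lower; none is a member. Of 12 Nodal ligands and targets, 0 were higher and 1 lower. The day 7 RB cells thus had higher BMP targets, while 4 of the 100 members differed from RA by the test.

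In the embryo the members were measured in germ cells of both sexes. 86 of the 100 passed the filter of 5 RPM in 2 libraries. The 14 others were not tested: Cyp26a1, Cyp26b1, Dhrs3, Itga3, Cyr61, Spsb1, Actg2, Efemp1, Car4, Tagln, Ctgf, Parp10, Dkk3 and Ston1. The retinoid enzymes that led in culture were thus near the floor in germ cells of the embryo. Cyp26a1 was 0 to 3.87 RPM over the 22 embryo libraries and 0 to 2.19 from E10.5 on, Cyp26b1 stayed at or below 3.18, and Stra6 was 10.1 and 6.04 at E9.5 and at or below 1.28 from E11.5 on.

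The summed level of the members separated the sexes from E12.5 on, with the male libraries above the female ones at each stage. Sums were 1052 and 1008 RPM in males and 766 and 748 in females at E12.5, and 1438 and 1358 against 968 and 988 at E13.5. At E14.5 they were 1952 and 1966 against 633 and 530, and at E15.5 2066 and 2125 against 461 and 501. Lefty1 made up much of the gap at the earlier stages: without it the sums were 851 and 803 RPM in males and 764 and 747 in females at E12.5, and 1110 and 1045 against 967 and 987 at E13.5. The median over members was above 0, that is higher in females, at both stages (0.10 and 0.22, with 45 and 49 of 86 members above 0). Before the sexes were separated, E9.5 had 1599 and 1616 and E11.5 739 and 772. The reporter used for sorting changed between E13.5 and E14.5, and stage and reporter cannot be told apart across that step.

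At E12.5 limma called 6 members higher in female and 8 lower (3.77% and 2.75% of all 12567 genes tested). The count of 6 became 2 without female replicate 1, and the count of 8 became 4 without male replicate 2. Lefty1 was 200 and 205 RPM in males and 2.78 and 1.69 in females (log2 difference -6.00, SE 0.34, limma adjusted p = 3.08e-11). Notch3, a Notch receptor, and Bcar3, an adhesion adaptor, were also lower in females (-3.70 and -3.31). The adhesion protein Parva (2.13), the transcription factor Tead2 (1.89), the protease inhibitor Timp2 (1.62), the lipid droplet protein Plin2 (1.29) and Krt18 (1.19) were higher.

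At E13.5 limma called 21 members higher and 18 lower in female (10.4% and 6.31% of all genes), and the median was 0.22 against 0.04. Lefty1 was 328 and 313 RPM in males against 0.865 and 0.962 in females (-7.39, SE 0.34, limma adjusted p = 1.6e-13). Prtg was higher in females, at 101 and 86.2 RPM against 34 and 38.1 (1.36, SE 0.23, limma adjusted p = 9.77e-05), and so was H19, at 31.4 and 40.4 against 12.7 and 11.8 (1.47, SE 0.24, limma adjusted p = 7.29e-05). Krt18 was 19.3 and 19.9 RPM in females and 2.54 and 3.94 in males (2.30, SE 0.32, limma adjusted p = 6.92e-06). The members thus went both ways between the sexes at this stage.

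A day later, E14.5, most calls were on the male side: 12 members were higher and 41 lower in female (22.4% and 25.9% of all genes), with a median of -0.90 against -0.08. In the last stage, E15.5, 6 were higher and 48 lower (23.7% and 30%), with a median of -1.30 against -0.14. After quantile normalization 14 were higher and 39 lower, with a median of -0.81 against 0.02. 69 of the 86 members tested were below 0 at E15.5. Ptgr1, an enzyme that inactivates prostaglandins and leukotrienes, was 382 and 329 RPM in males and 5.78 and 1.67 in females at E15.5 (-6.38, SE 0.35, limma adjusted p = 1.59e-13). Ifi27l1, an interferon-related gene, was 257 and 236 against 9.13 and 11.1 (-4.48, SE 0.24, limma adjusted p = 7.58e-14). Pramef12, a PRAME family gene, was 144 and 175 against 3.04 and 0.278 RPM (-6.13, SE 0.36, limma adjusted p = 5.25e-13).

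Other members in the same direction at E15.5 were Glipr2 (-4.78), the complement inhibitor Serping1 (-4.52), Tead2 (-4.02), the Wnt receptor Fzd2 (-3.94), Amotl2 (-3.08) and Sox4 (-2.93). Tead2 turned over from E13.5, when it was 15 and 10.9 RPM in females and 4.13 and 3.28 in males, to E15.5, when it was 1.83 and 1.95 in females and 47.8 and 44.1 in males. Lefty1 had by then dropped in males too, to 8.15 and 3.71 RPM, and it was listed at 0 in the E15.5 female libraries. The members that were higher in females included Tshz1, at 8.82 and 20.6 RPM against 1.85 and 1.41 (2.47, SE 0.40, limma adjusted p = 6.9e-06), and Agpat3, a lipid synthesis enzyme, at 21.6 and 21.2 against 7.41 and 3.88 (1.80, SE 0.32, limma adjusted p = 2.54e-05). Zfp362 (1.52), Igfbp3 (1.31), Cald1 (1.20) and Pcbd1 (1.22) completed the 6.

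The sex difference changed from E12.5 to E15.5 in 7 members upward and 41 downward by limma (22.2% and 27.7% of all genes), a contrast added after the counts were seen. Against E11.5, whose libraries both of the next comparisons share, E15.5 females had 11 members higher and 32 lower (28.1% and 24.5% of all genes), and E15.5 males had 36 higher and 11 lower (28.6% and 18.5%). These were also added after the counts were seen. The member medians were -0.47 for females against 0.10 over all genes, and 0.69 for males against 0.21. For males the share of all calls that were higher went from 60.7% to 48.4% after quantile normalization, the all-gene median from 0.21 to -0.05, and the members' counts to 33 higher and 19 lower. In males Ptgr1 rose by 6.64 (SE 0.35, limma adjusted p = 1.38e-13) and the fibrillin Fbn2 by 4.50 (SE 0.42, limma adjusted p = 2.4e-09). In females Bcar3 rose by 2.55 (SE 0.34, limma adjusted p = 3.72e-07), and Cmtm8, a membrane protein, fell in females (-3.93) and in males (-3.74).

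Markers of other cells moved with the sex difference after E13.5. The fibroblast list without Fn1 was 5.21 to 13.3 RPM at E12.5 and E13.5, 92.9 to 190 in males against 48.9 to 54 in females at E14.5, and 130 to 162 against 21.6 to 44 at E15.5. The 14 gonadal somatic genes summed to 69.5 to 76.1 RPM in males and 19.6 to 23.4 in females at E15.5, with Amh, the Sertoli cell hormone, at 0 in both. The 6 endoderm genes summed to 94.5 to 97.4 RPM in males and 1.11 to 4.56 in females, with Sox17, Sox7 and Ttr at 0. The part of these in the members' sex difference was not tested. Of 18 male germ cell genes tested at E15.5, some of them, such as Lefty1, also members, 15 were lower in females and none higher. Of all genes 30% were lower and 23.7% higher. A list of male germ cell genes favours this direction in advance, so the count is description only.

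**Figure D3:**
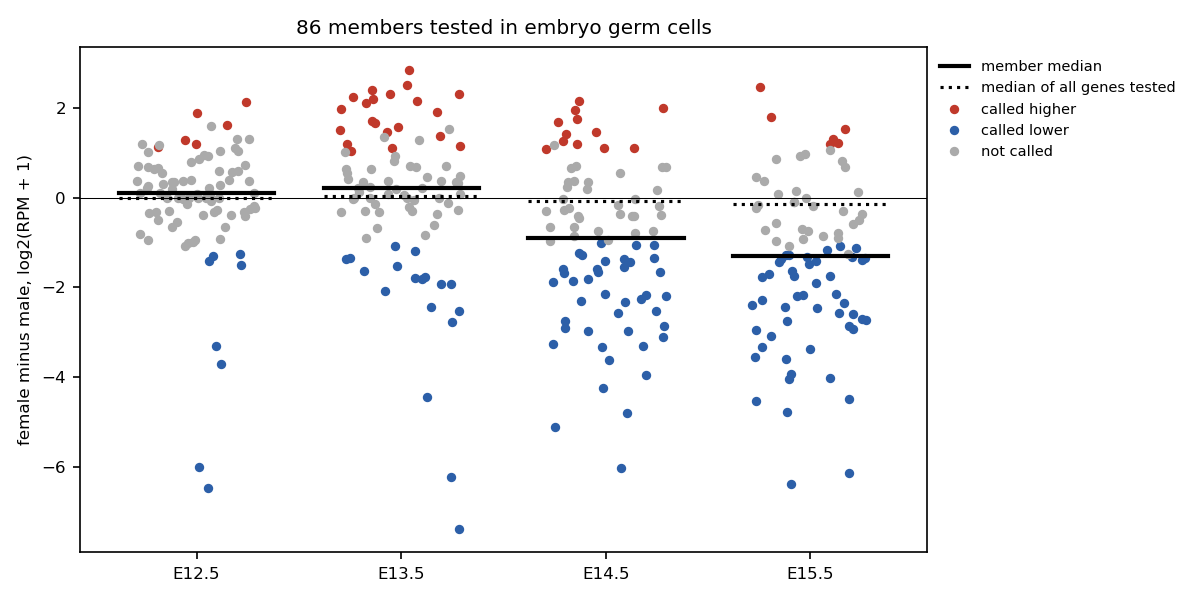
Log2 difference of female minus male germ cells for the 86 members tested at each embryonic stage (points, coloured by call), with the member median (bar) and the median of all genes tested (dotted). The member median goes from 0.10 at E12.5 and 0.22 at E13.5 to -0.90 at E14.5, then -1.30 at E15.5, while the all-gene median stays between -0.14 and 0.04.

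The Stra8 experiment asks what the members do in RB cells that lack Stra8, the retinoic acid target needed for entry into meiosis. Stra8 itself was 0.064 and 0 RPM in the wild type at day 3, 193 and 192 at day 5, 1415 and 1439 at day 7 and 1813 and 1717 at day 9. In the knockout it was 33.3 (SK1), 29.3 (SK2), 30 (SK1) and 204 (SK3) RPM at day 7, and 105, 77.9, 122 and 483 at day 9. Which part was deleted is not stated in the labels, and 3′ reads outside it would check nothing; reads of the gene were fewer in each knockout library, with the highest level in SK3. At day 9 the difference was -3.56 (SE 0.57, limma adjusted p = 7.53e-06).

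Wild type RB cells of this background were followed over the same days. From CT at day 3 to RB at day 9, 41 of 97 members tested rose and 8 fell (27.8% and 15.9% of all 12206 genes), with a median of 0.70 against 0.23. Actg2, Tagln and Actc1 did not pass the filter. The share of all calls that were higher was 63.6%, and 51.2% after median centring and 47.9% after quantile normalization; the all-gene median went from 0.23 to -0.03 and -0.06, and the members' counts to 35 and 11, and 31 and 13. The summed level was 1180 and 1259 RPM at day 3, 1561 and 1637 at day 5, 2966 and 2982 at day 7 and 2075 and 1917 at day 9. The highest level was thus at day 7. Under RB in the 129S1:C57BL/6 line it was also at day 7, but there the rule chose members that were low in RB at day 9.

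In these wild type cells Cyp26a1 was listed at 0 at day 3, and was 16.6 and 22.4 RPM at day 5, 327 and 277 at day 7 and 258 and 245 at day 9. Cyp26b1 was 0.64 and 0.941 at day 3 and 52.9 and 43.5 at day 9 (4.78, SE 0.54, limma adjusted p = 5.17e-09). Prtg was 6.27 and 9.89 at day 3 and 81.4 and 121 at day 9 (3.49, SE 0.31, limma adjusted p = 2.4e-11). Among the 8 that fell were Dcn (-3.76), Clu (-3.62), Zbp1 (-1.75), Myl9 (-1.69) and Tspan9 (-1.44). Tspan9 was 36.8 and 44.2 RPM at day 3 and 15.9 and 12.6 at day 9.

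No difference between knockout and wild type was called in the members before day 7. Limma called 0 members at day 3 in either direction (0.00819% and 0% of all genes), with 1 higher and 4 lower at an unadjusted p under 0.05. It called 0 at day 5 (0% and 0.0164%), with 1 higher and 9 lower at an unadjusted p under 0.05. Without SK1 replicate 1 or without SK3 at day 5, 1 member was called lower. Cyp26a1 at day 5 was 21.4, 10.1, 9.46 and 9.95 RPM in the knockout and 16.6 and 22.4 in the wild type, which overlap.

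At day 7 limma called 9 members higher and 7 lower in the knockout (3.16% and 5.57% of all genes). The higher ones were Glipr2 (2.29, SE 0.23, limma adjusted p = 5.74e-08), Timp2 (2.09), Ptgr1 (1.70), Ston1 (1.70), Pgbd5 (1.55), Zbp1, Cmtm8, Oasl2 and Tinagl1. Among the lower ones were Emilin1 (-1.92, SE 0.44, limma adjusted p = 0.00243), Bcar3 (-1.62), Cyp26b1 (-1.62), Dmrtb1 (-1.35), Cyp26a1 and Lpp. The 7 became 1 without wild type replicate 1, 4 without wild type replicate 2 and 4 without the second SK1 library. The share of all calls that were higher was 36.2%, and it became 51.3% once medians were centred and 53.8% once quantiles were matched. The all-gene median went from -0.09 to 0.03 and -0.01, and the members' counts became 13 higher and 6 lower under both.

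Both Cyp26 genes were thus lower in the knockout at day 7. Cyp26a1 was 152, 154, 124 and 105 RPM against 327 and 277 in the wild type (-1.19, SE 0.31, limma adjusted p = 0.00743). The groups did not overlap. Glipr2 was 100, 127, 107 and 93.6 RPM in the knockout and 23.9 and 18.5 in the wild type.

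At day 9 the knockout had 53 of 97 members higher and 1 lower (10.8% and 8.35% of all genes), with a median of 1.07 against 0.09, and 91 of 97 above 0. Without wild type replicate 1, wild type replicate 2 or the second SK1 library the 1 lower member was not called. The summed level was 2075 and 1917 RPM in the wild type and 5185, 5261, 4711 and 4653 in the knockout. In the wild type it had dropped since day 7, when the sums were 2966 and 2982. In the knockout it had risen in each line, from 3567 (SK1), 3986 (SK2), 2964 (SK1) and 3011 (SK3). The knockout effect at day 9 less that at day 5, a contrast added after the counts were seen, was called higher in 46 members and lower in 0 (7.98% and 5.37% of all genes; 0 lower at an unadjusted p under 0.05).

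**Figure D4:**
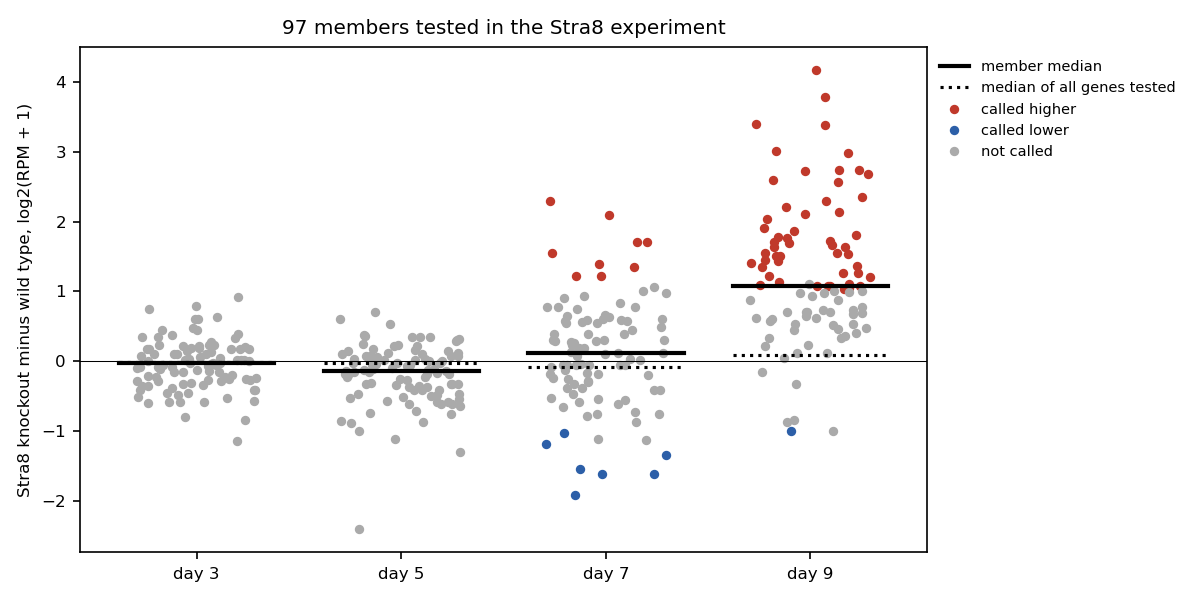
Log2 difference of Stra8 knockout minus wild type for the 97 members tested at culture days 3, 5, 7 and 9 (points, coloured by call), with the member median (bar) and the median of all genes tested (dotted). The member median at day 9 is 1.07 with 53 members called higher, against 0.12 with 9 called higher at day 7.

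The retinoid genes at day 9 were higher in the knockout for 3 of 4. Stra6 was 60, 50.4, 41.6 and 47.1 RPM against 10.9 and 3.75 in the wild type (2.74, SE 0.38, limma adjusted p = 7.09e-07). Dhrs3 was 36.7, 46.5, 42.6 and 28.6 against 9.23 and 16.4 (1.55, SE 0.41, limma adjusted p = 0.00312), and Cyp26a1 503, 591, 500 and 522 against 258 and 245 (1.07, SE 0.31, limma adjusted p = 0.00675). Cyp26b1 overlapped between the groups, at 58.7, 73.3, 49.3 and 34 RPM against 52.9 and 43.5. Cyp26a1 was thus lower in the knockout at day 7 and higher at day 9.

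All 4 other retinoic acid targets were higher at day 9. Hoxa5 was 44.1, 45.1, 28.2 and 20.9 RPM in the knockout and 5.04 and 3.28 in the wild type (2.74, SE 0.43, limma adjusted p = 6.63e-06). Tshz1 (2.13, SE 0.33, limma adjusted p = 4.48e-06) and Meis2 (2.03, SE 0.44, limma adjusted p = 0.000401) went the same way. Tgm2 was called too (SE 0.35, limma adjusted p = 0.000862), at 24.7, 29.4, 18.2 and 20.9 RPM in the 4 knockout libraries against 5.88 and 9.36 RPM in the wild type. Lefty1 was 107, 95.8, 124 and 135 RPM against 44.1 and 38.6 (1.45, SE 0.17, limma adjusted p = 3.1e-08).

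The largest differences among the members were in the keratins and in genes of the interferon and enzyme groups. Krt8 was 0.839 and 0.468 RPM in the wild type and 34.7, 30.1, 27.8 and 23.2 in the knockout (4.17, SE 0.43, limma adjusted p = 3.57e-09). Krt18 was 9.23 and 7.02 against 99, 131, 82.8 and 74.9 (3.40, SE 0.35). Oasl2 was 2.52 and 1.87 against 48.3, 63.5, 34.4 and 30.9 (3.78, SE 0.39). None of these groups overlapped. The level of 3 reads was 2.52 and 1.4 RPM in these wild type libraries. Both Krt8 values there were below it, so the size of its difference is uncertain, and Oasl2 was at or just above it.

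Ptgr1 was 26.9 and 26.2 RPM in the wild type and 291, 231, 344 and 288 in the knockout (3.38, SE 0.23, limma adjusted p = 1.48e-12). Glipr2 was 9.23 and 14.52 against 101, 85.7, 104 and 114 (3.01, SE 0.23). The 1 member called lower was Efemp1, a matrix protein, at 9.73, 8.51, 5.74 and 12.4 RPM against 18.5 and 18.7 (SE 0.33, limma adjusted p = 0.0169), with a difference at the fold limit.

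By role at day 9, the counts of higher members in the knockout were 8 of 16 receptors, membrane and signalling proteins, 7 of 11 enzymes, 5 of 13 matrix and secreted genes, 5 of 8 transcription and cell cycle genes and 4 of 5 Hippo and TEAD genes. These stand beside 53 of 97 members and 10.8% of all genes, and no test compared the roles. Actin, contractile and adhesion genes had 2 of the 13 tested. Acta2 was not called (-0.87, SE 0.57, limma adjusted p = 0.233), and Tpm1 was under the fold limit (0.93, SE 0.11, limma adjusted p = 1.03e-07), while Myl9, a myosin light chain, was 27.9, 19, 21.5 and 27.8 RPM against 7.55 and 2.34 (2.21, SE 0.33, limma adjusted p = 2.46e-06). Tinagl1 was 57.1, 70.7, 47.8 and 42.5 against 9.23 and 6.09 (2.68, SE 0.25), Tspan9 85, 66.7, 75.1 and 68 against 15.9 and 12.6 (2.29, SE 0.20), and H19 311, 263, 132 and 202 against 78.9 and 55.3 (1.69, SE 0.32).

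**Figure D5:**
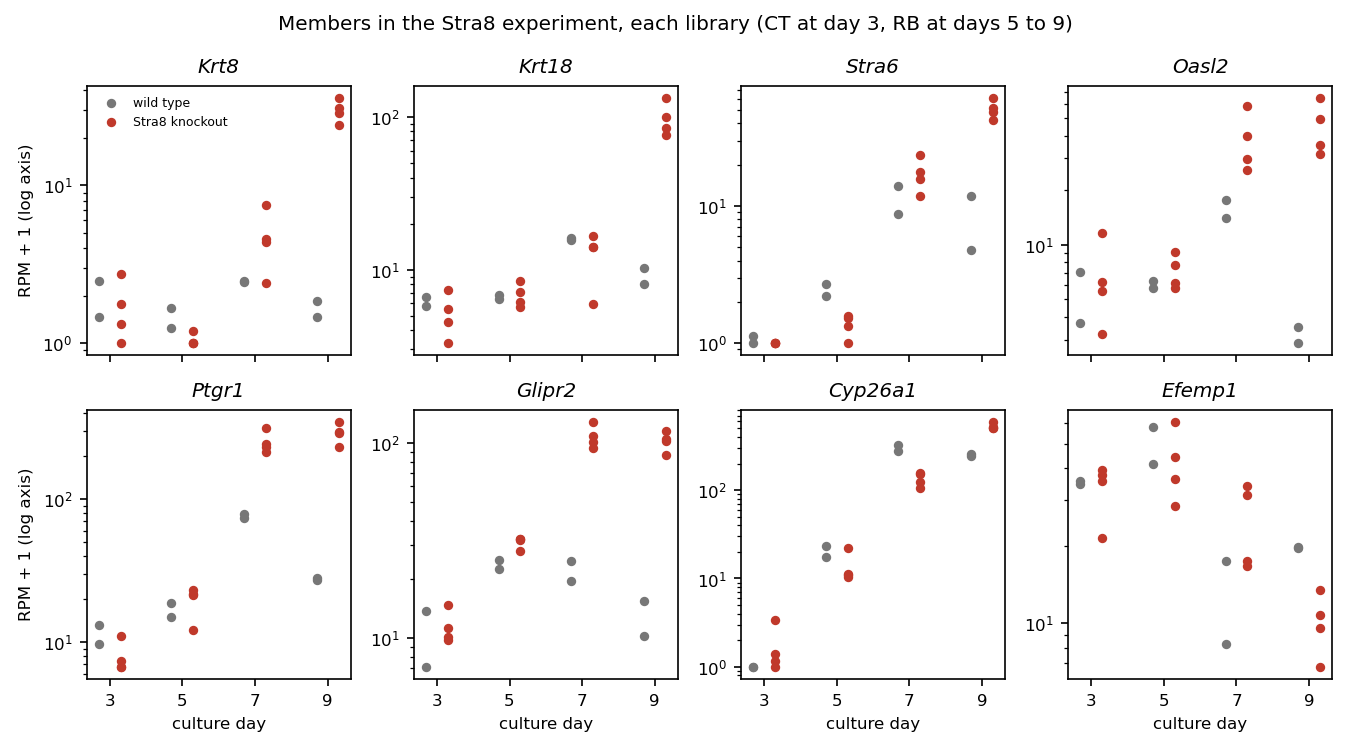
RPM + 1 on a log axis against culture day for members in the Stra8 experiment, with each wild type (2 a day) and knockout library (4 a day) as a point, CT at day 3 and RB at days 5 to 9. At day 9 the knockout points of Krt8 (23.2 to 34.7 RPM) lie above the wild type (0.468 and 0.839, both under the level of 3 reads).

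Genes on the pathway lists were counted in the knockout at day 9 as well, where 10.8% of all genes were higher and 8.35% lower. The retinoic acid list includes members already named above, so its count is not separate from theirs. Of 20 retinoic acid targets 12 were higher and 1 lower, of 15 BMP targets 8 were higher and none lower, and of 24 pluripotency and early germ cell genes 17 were higher and none lower. Of 32 meiotic prophase genes 26 were lower and none higher. The BMP target Id1 was 1.69 higher (SE 0.31, limma adjusted p = 5.79e-05), and Hoxb1, a retinoic acid target that is no member, 4.25 higher (SE 0.41, limma adjusted p = 1.19e-09). The fibroblast list without Fn1 was 38.4 to 50.4 RPM in the wild type and 44.8 to 61.7 in the knockout, with Lum at 0 in both, and Dcn was not called (0.48, SE 0.43, limma adjusted p = 0.402). No RA arm was measured in this background, so the knockout under RA alone was not analysed here.

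Single libraries have no replicate check and are given as values. The 0R3B library at day 9 summed to 1814 RPM over the members. It was below both RA libraries in 98 members and above both in 1, above both CT libraries in 46 and below both in 34, and above both RB libraries in 24 and below both in 55. The rule chose members high in these RA libraries, so a place below RA was favoured in advance. The CT and RB libraries also chose the members, and no share of all genes was counted, so these counts are description only. In the 0R3B library Cyp26a1 was 301 RPM, Cyp26b1 54, Lefty1 8.56, H19 151, Prtg 30.1, Pmp22 25.7 and Tspan9 17.5. Cyp26a1 and Cyp26b1 in that library were thus above both RB libraries, and Lefty1 below them.

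In the C57BL/6 line the library c7RB, labelled culture day 9, summed to 4067 RPM over the members and its control c7CT to 2301. The spike-in rows summed to 9.17 RPM in c7RB and 27188 in c7CT, and the part of this in the difference was not tested. Of the members 44 were at least 1 higher on the log2 scale in c7RB, 12 at least 1 lower and 44 within 1, where 15.2% of 10725 genes were as much higher and 5.84% as much lower. Cyp26a1 was 192 RPM in c7RB and 17.4 in c7CT, and Lefty1 203 and 109. For c0RB against c0CT, labelled culture day 2, 9 members were higher and 7 lower, against 1.94% and 3.86% of 9835 genes, with sums of 1519 and 1410 RPM.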

How the data were processed

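Messenger RNA was measured by SC3-seq in 75 mouse libraries. Values in the deposited table are RPM, a depth-scaled read signal that the authors computed per gene, per the labels. The submitters' processing notes name cutadapt 1.11, TopHat 1.4.1, Bowtie 1.0.1, Cufflinks 2.2.0 and the build mm10; their order and settings are not given in the sources used here. Spike-in rows (96) were left out. In the Stra8 experiment they summed to 3.23 to 49.9 RPM in some libraries and 26445 to 48450 in the others. Both kinds were among the wild type and the knockout libraries. 2777 values under 0.001 RPM were set to 0. Depth was estimated from the RPM step of 1 read, and 85.3 to 95.2% of low values were whole reads within 0.05, so no count test was run. The floor of 3 reads marks values too low to count as measured, and no interval for counting error was computed.

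Values were taken to log2(RPM + 1), which understates the change of low genes. Fits were made separately for each experiment in limma 3.58.1 in R 4.3.3 (lmFit, eBayes with trend), with 1 mean per group, all its replicated groups sharing 1 estimate of the spread. Genes at 5 RPM or more in at least 2 libraries entered the test: 11873 genes in the 129S1:C57BL/6 line, 12567 in the embryo and 12206 in the Stra8 experiment, with 11, 11 and 16 residual degrees of freedom. Calls needed a Benjamini-Hochberg adjusted p below 0.05, over all genes tested, and an absolute log2 difference of at least 1. No test was made on the day 9 libraries that chose the members.

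The members, roles, lists and comparisons were chosen with earlier results of these data known. Members named with values in each library are the 12 with the highest RA level, those on a pathway or marker list, and the 5 called with the largest change each way in a comparison; gene names at the limits of the rule were also given. A member and a gene at the limits that this rule would name are not reported here. Folds against a group listed at 0 are not given. Gene positions and promoters are RefSeq's, on GRCm38.p6. Alternatives were the pseudocount, the filter, the scaling, the fold limit, the groups in the fit, a replicate block, averaged SK1 libraries and each library left out.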

Additional observations from a re-analysis of the deposited data

Results flagged for a closer look

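Among the 4 Stra8 knockout libraries at day 5, the summed level of the members was lowest in the second SK1 library, at 1347 RPM against 1580, 1596 and 1559 in the others. Its gap to the nearest library, over the range of the 4, was above Dixon's critical value. This was the 1 such library in 20 groups of values checked, and chance marks about 1 in 20. It was also the shallowest of the 4, at an estimated 1.16 M reads against 1.92, 5.15 and 2.91 M. In it 86 members were above 0, against 92, 96 and 93 in the others. The part of depth in its lower sum was not tested.

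The difference between knockout and wild type was higher at day 9 than at day 5 in 46 of 97 members by limma, tested as a difference of differences. Of all genes 7.98% were called so. Between E12.5 and E15.5 the female minus male difference moved up in 7 of 86 members and down in 41, by the same kind of test. The shares of all genes were 22.2% up and 27.7% down. The reporter used for sorting also changed between those stages.

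In the single libraries of the C57BL/6 line, which no test used, 44 of 100 members were at least 2-fold higher in c7RB than in c7CT. Of 10725 genes 15.2% were as much higher.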

How the results depend on the processing

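Of the 593 differences called in single members over all comparisons, 0 changed sign under the alternatives that tested them. Fewer passed as calls under some: 440 of 593 with a pseudocount of 5, 524 with quantile normalization and 528 with no filter. Medians near 0 did change sign with scaling: the member median of RB against RA at day 5 went from 0.01 to -0.01 with median centring and -0.02 with quantile normalization. With only the groups compared in the fit, the members called were 1 for RA over CT and 4 for RB over CT at day 5, 5 for RB under RA at day 7, 2 lower in the knockout at day 9, and 6 higher in females from E11.5 to E15.5. With no filter on low values, RB over CT at day 5 gave 6, RB under RA at day 7 gave 1, and the knockout gave 2 lower at day 9 and 1 lower for day 9 less day 5. Median centring gave 5 for RB under RA at day 7, and 1 and 2 lower in the knockout at days 5 and 9. Quantile normalization gave 7 for RB under RA at day 7, 1 for its change since day 5, 14 higher in females at E15.5, 2 lower in the knockout at day 9, 13 lower in the wild type at day 9, and 19 lower in males from E11.5 to E15.5. A fold limit of 1.5 gave 6 for RB under RA at day 7. A pseudocount of 5 gave 1 higher and 5 lower in females at E12.5, 13 and 11 at E13.5, 3 and 26 at E14.5, and 2 higher at E15.5; it gave 0 lower in the knockout at day 9, 1 for the change of RB against RA, 5 higher and 18 lower in females from E11.5, and 7 lower in males. A filter of 20 RPM gave 10 higher at E13.5, 7 higher and 25 lower at E14.5, 28 lower at E15.5, 24 lower for E15.5 less E12.5, 5 higher and 21 lower in females from E11.5, and 19 higher in males. Averaging the SK1 libraries gave 1 lower at day 5 and 0 at day 9. The cause was not tested for any of these.

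Leaving out each library in turn gave ranges of 3 to 7 for RA over CT at day 5, 4 to 12 for RB over CT at day 5, 33 to 49 and 46 to 52 for RA and RB over CT at day 7, and 0 to 2 for RB under RA at day 7. Female against male gave 2 to 6 higher and 4 to 8 lower at E12.5, 15 to 21 and 12 to 15 at E13.5, 9 to 13 and 33 to 39 at E14.5, and 6 to 9 and 43 to 46 at E15.5. The knockout gave 0 to 1 lower at day 5, 8 to 11 higher and 1 to 7 lower at day 7, and 41 to 55 higher and 0 to 1 lower at day 9. The rule itself chose 96 to 136 genes when 1 day 9 library was left out, the most without RA replicate 1, and 101 and 69 with pseudocounts of 0.5 and 5, 86 once medians were centred and 89 once quantiles were matched.

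A replicate block gave 57 for RA over CT at day 7, 54 for RB over CT, 4 for RB under RA, and 7 higher and 48 lower in females at E15.5, and it changed no count by over 1.5 times. Deviations of libraries with the same number correlated at -0.07 to 0.23 in the 129S1:C57BL/6 line and -0.07 to 0.05 in the embryo, with 11 of 55 and 0 of 55 pairs of groups over 0.1. Pairing was to be taken as given only where every pair was over 0.1, so the libraries were treated as sharing only a number. In the Stra8 experiment no block was fitted. Members near the floor of 3 reads, and groups of 2 libraries, limit what could be called.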
